A study of Mus musculus with 9 samples.

Results

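The genes that take up retinol, make retinoic acid from it, bind the acid and destroy it were followed across 9 RNA-seq libraries of mouse embryonic stem cells. They are the 9 genes Stra6, Rdh10, Aldh1a2, Dhrs3, Crabp1, Crabp2, Cyp26a1, Cyp26b1 and Cyp26c1, taken by exact symbol from the 33495 genes of the count table. All 9 were found, and 8 passed the filter for testing, which asked for at least 1 CPM (the read count scaled to a common library size) in at least 3 libraries and left 13996 genes; Cyp26c1 did not pass. The cells were of the RF8 line and carried a transfected construct: EGFP (the control), Nanog in its wild-type form (WT), or Nanog with the substitution L122A in its DNA-binding homeodomain. Each transfectant was grown in 3 cultures. These were a routine medium with 15% fetal calf serum, leukaemia inhibitory factor (LIF, 1000 units per ml) and puromycin; the same cells with LIF left out; and the same again with retinoic acid (RA) added at 5 µM. Each of the 9 combinations was sequenced as 1 library. The labels do not give the time in culture, the promoter that drove the constructs, or whether a transfectant was 1 clone or a pool, nor do they say whether puromycin and serum were kept in the other cultures.

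Retinol enters cells through STRA6, the membrane receptor for the plasma carrier RBP4. RDH10 oxidises it to retinal, DHRS3 reduces retinal back to retinol, and ALDH1A2 turns retinal into RA. In the cytoplasm RA is held by CRABP1 and CRABP2; CRABP2 is known to hand RA to its nuclear receptors, and CRABP1 has been tied to its retention and breakdown. The CYP26 cytochromes P450 hydroxylate RA and so clear it. RA receptors (RAR with RXR) sit on paired hexamers in DNA, and Cyp26a1 is a textbook target that is switched on by the ligand it degrades. In the RA culture the acid itself was supplied, downstream of Stra6, Rdh10, Dhrs3 and Aldh1a2.

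The promoter of Cyp26a1 is shown because this gene reached the highest level of all members with RA and because its promoter alone, among those matched, held a paired receptor hexamer. Promoter windows from RefSeq (GRCm38.p6) were matched by symbol for 7 of the 9 genes, in 12 windows; Rdh10 and Crabp2 were not matched. The 250 bases before each annotated start were searched on both strands for 2 copies of a hexamer spelled AGGTCA or AGTTCA, or either of these with G as its first base, in the same orientation with 5 bases between them, or with 1 or 2. The window of Cyp26a1 lies at chr19:37697558-37697807 on the plus strand of GRCm38.p6, and the capitals mark the repeat with 5 bases between its hexamers, which runs on the strand opposite to the gene from 32 to 16 bases before the start.
Cyp26a1: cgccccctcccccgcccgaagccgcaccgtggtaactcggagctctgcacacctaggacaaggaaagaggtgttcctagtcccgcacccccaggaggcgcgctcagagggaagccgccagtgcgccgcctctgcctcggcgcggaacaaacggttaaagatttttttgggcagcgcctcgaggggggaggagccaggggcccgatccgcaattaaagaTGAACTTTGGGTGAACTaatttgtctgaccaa
The repeat is set here beside the one the same search found in the promoter of Rarb, the RA receptor gene in which such an element is best known; both are written in the orientation of the repeat, all in capitals.
Cyp26a1 repeat: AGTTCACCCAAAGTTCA
Rarb repeat: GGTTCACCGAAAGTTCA
The repeats share 15 of 17 bases. A repeat with 5 bases between its hexamers was found in 29 of 32851 promoter windows (0.0883%), and one with 1, 2 or 5 bases between in 140 (0.426%). No other member's window held either repeat, or a lone hexamer of these spellings. Across the transfectants Cyp26b1 rose with RA over LIF by 9.42 on the log2 scale, against 9.59 for Cyp26a1. In EGFP cells the factors for Cyp26b1 and Cyp26a1 were 807 (95% interval 346 to 2488) and 53.4 (41.2 to 70.4). In WT cells they were 465 (182 to 1709) and 1126 (593 to 2462). In L122A cells, with 0 and 2 counts with LIF, the interval for Cyp26b1 started at 253 and Cyp26a1 had 5334 (1476 to 44051). The filter admitted Cyp26b1 to the test through its RA libraries alone. For comparison, the window of Cyp26b1 is shown, which contains no such repeat and no lone hexamer of these spellings on either strand (chr6:84593811-84594060, minus strand, all in lower case).
Cyp26b1: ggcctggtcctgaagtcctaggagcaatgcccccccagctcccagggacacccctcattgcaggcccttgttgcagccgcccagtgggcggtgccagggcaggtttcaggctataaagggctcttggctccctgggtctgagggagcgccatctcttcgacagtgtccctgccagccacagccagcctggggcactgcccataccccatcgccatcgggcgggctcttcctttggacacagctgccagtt
Such a hexamer was present in 38.6% of all windows. A match is a match of letters, and its absence concerns these bases alone.

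The libraries held 24166395 to 28714988 counted reads. Levels are given as CPM after trimmed-mean (TMM) scaling, whose factors ran from 0.810 to 1.26, and between genes as FPKM, the deposited values, which allow for gene length. Nanog, the transfected gene, was lower in the libraries labelled WT and L122A than in EGFP cells in both cultures without RA: 223 and 240 against 385 CPM with LIF, and 168 and 130 against 291 CPM without LIF. With RA it was 195 (WT) and 259 CPM (L122A) against 0.873 CPM in EGFP cells. A higher level of Nanog in the cells labelled as Nanog transfectants was thus seen in the RA culture alone; the names WT, L122A and Nanog cells below are those of the labels, and comparisons with EGFP in the other cultures do not compare more counted Nanog transcript with less. The labels do not say whether the counts take in transcripts of the construct. The 12 pluripotency markers examined all had at least 1 count in each library. Their summed level was 2187 to 5715 CPM in the 6 libraries without added RA. With RA it was 123 (EGFP), 580 (WT) and 1150 CPM (L122A), and 5, 1 and 0 of the markers were below 1 CPM. Of these RA sums Tbx3, a marker that rose with RA, held 83.4, 248 and 284 CPM, and Nanog itself 0.873, 195 and 259 CPM. Culture and transfectant were tested over all genes together in an additive edgeR quasi-likelihood model with Benjamini-Hochberg adjustment. With 1 library per combination, its p-values measure whether an effect repeated across the levels of the other factor, not across separate cultures. Ratios between individual libraries carry exact 95% Poisson intervals for the counting error alone. In bulk RNA, fewer cells of a type and less RNA per cell cannot be told apart.

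With RA, 6 of the 8 tested genes rose and 1 fell relative to LIF. Cyp26a1, Cyp26b1, Dhrs3, Stra6, Crabp2 and Rdh10 were higher and Crabp1 was lower, while Aldh1a2 did not pass. Of all genes tested, 24.5% were called higher and 23.8% lower in this comparison, so that a change as such was common in these libraries. Cyp26b1 passed the filter through its 3 RA libraries alone, and Stra6 through these and 1 other, so that the filter admitted them only because they were high with RA. Of the 6 members that pass without the RA libraries, 4 were higher and 1 lower, with a median log2 difference of 2.87 against 0.01 over all tested genes. Cyp26b1 was not tested when any RA library was left out. Scaling by total counts in place of TMM moved the median of all genes by 0.38, and the share of calls that were higher from 50.7% to 69.8%. Relative to the culture without LIF, 6 genes were higher and none lower, against 22.6% of all genes higher; this comparison uses the same RA libraries. In 3 of the 6 members that pass without RA (Cyp26a1, Dhrs3 and Crabp2) every RA library was above the other 6 libraries, which was true of 22.5% of all tested genes. The same held for Cyp26b1 and Stra6, where the filter favoured it.

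**Figure D1:**
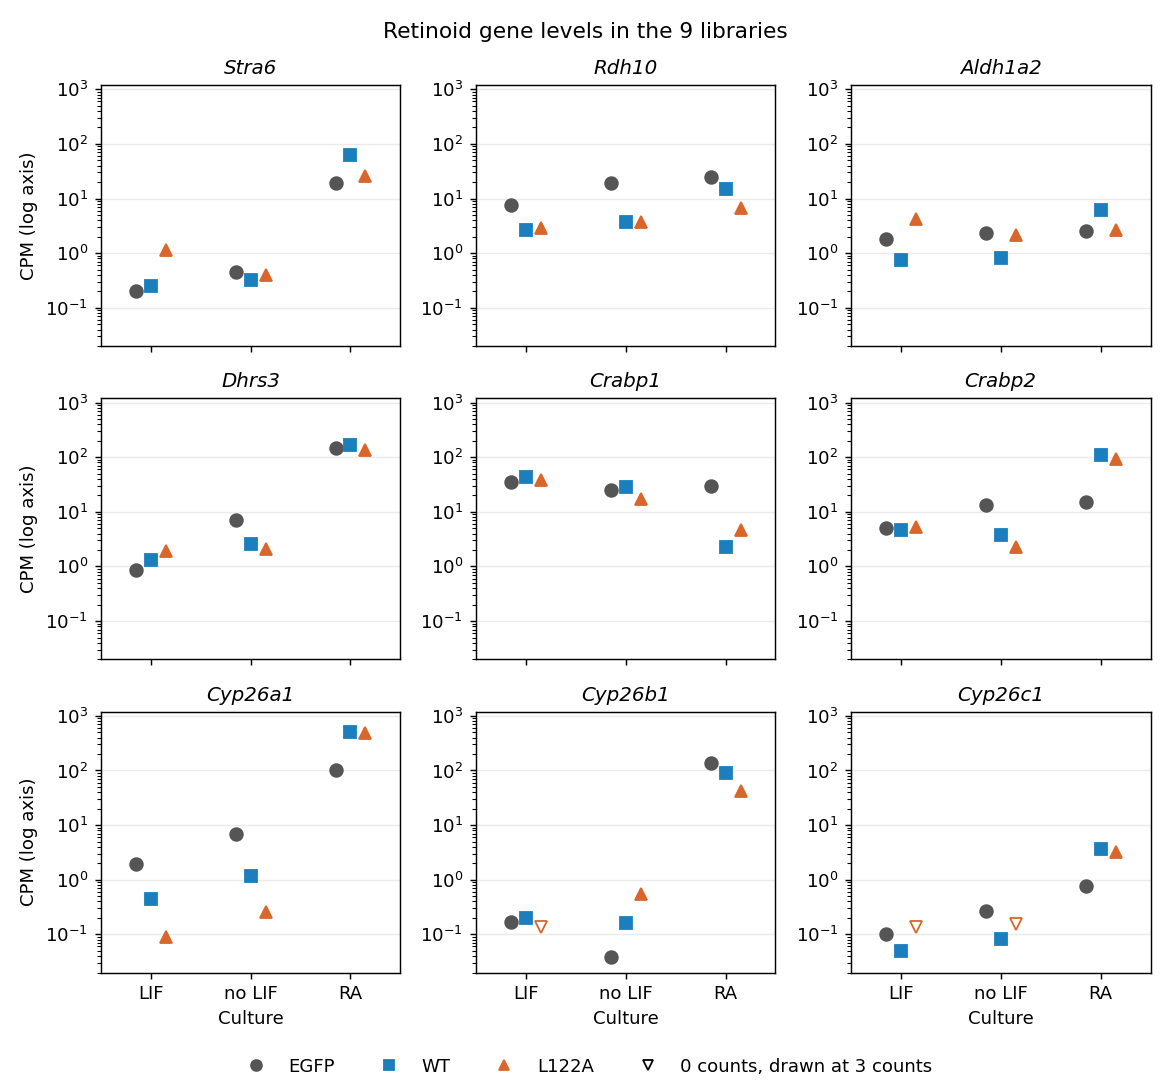
Level of each gene in CPM (log axis) by culture, with 1 point per library and the transfectants by colour and shape; open triangles mark libraries with 0 counts, drawn at the value of 3 counts. In the RA culture Dhrs3 lies between 138 and 166 CPM in all 3 transfectants, whereas Crabp1 and Crabp2 separate the EGFP library from the Nanog libraries.

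Stra6, the retinol uptake receptor, was nearly silent until RA was added. With LIF it stood at 0.201 (EGFP), 0.246 (WT) and 1.13 CPM (L122A), and without LIF at 0.459, 0.327 and 0.406 CPM. With RA it stood at 19.5, 62.1 and 25.4 CPM. All RA libraries were therefore above all others, the WT library highest. The log2 difference between RA and LIF was 6.10 (SE 0.69, adjusted p = 5.32e-04, edgeR) and between RA and no LIF 6.34 (SE 0.69, adjusted p = 6.26e-04); the filter let this gene in largely through its RA libraries, and with no filter they were 6.14 (adjusted p = 3.76e-04) and 6.38 (adjusted p = 3.87e-04). Stra6 overlaps Ccdc33 on the opposite strand (mm9 chromosome 9, Stra6 57911594 to 58001762, Ccdc33 57876483 to 57966251), and the handling of strand in the counting is not given in the sources used here, so their reads cannot be told apart with certainty. Ccdc33 was at 0 counts in the 3 EGFP libraries and had 157, 53 and 484 counts in the WT libraries with LIF, without LIF and with RA. In the EGFP libraries, where Ccdc33 had no read, Stra6 was 96.9 times higher with RA than with LIF (95% interval 44.3 to 265).

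Rdh10, which commits retinol to RA synthesis, was highest in EGFP cells in every culture. Its levels were 7.67, 2.66 and 2.85 CPM with LIF in EGFP, WT and L122A cells, 19.6, 3.68 and 3.70 CPM without LIF, and 25.2, 15.1 and 6.74 CPM with RA. In each transfectant the RA library was the highest, but the EGFP library without LIF stood above the WT and L122A libraries with RA. The increase over LIF was 1.85 on the log2 scale (SE 0.37, adjusted p = 0.00439), and that over no LIF 1.08 (SE 0.36, adjusted p = 0.0399). The latter call was lost without WT RA (log2 difference 0.66, adjusted p = 0.194), without WT no-LIF (0.74, 0.172), without L122A no-LIF (1.03, 0.120) and without WT LIF (1.05, 0.0628), and with only these cultures fitted (adjusted p = 0.0574).

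Dhrs3, which works against Rdh10 by returning retinal to retinol, had nearly the same level in the 3 RA libraries. It was at 0.871, 1.33 and 1.94 CPM with LIF and 7.18, 2.58 and 2.13 CPM without LIF in EGFP, WT and L122A cells. With RA it reached 148, 166 and 138 CPM. The RA libraries differed from each other by at most 1.21-fold and lay far above the rest. The increase was 6.76 on the log2 scale over LIF (SE 0.56, adjusted p = 2.70e-04) and 5.32 over no LIF (SE 0.52, adjusted p = 5.25e-04). Within libraries, the ratio of Dhrs3 to Rdh10 per unit length was 0.161 in EGFP cells with LIF and 0.521 without, and between 0.711 and 0.995 in the 4 WT and L122A libraries without RA. With RA it was 8.36 (95% interval 7.76 to 9.02) in EGFP, 15.6 (14.3 to 17.2) in WT and 28.999 (25.5 to 33.2) in L122A cells. The reductase transcript was thus the more abundant in all RA libraries; in the 4 WT and L122A libraries without RA the intervals included equality.

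Aldh1a2, the main embryonic enzyme for the last step of RA synthesis, stayed low. Its levels were 1.84, 0.739 and 4.25 CPM with LIF, 2.29, 0.817 and 2.13 CPM without LIF, and 2.49, 6.17 and 2.70 CPM with RA, in EGFP, WT and L122A cells. The groups overlapped, and the log2 difference between RA and LIF was 0.996 (SE 0.74, adjusted p = 0.294). The transfectants went different ways: RA over LIF was 8.35-fold (95% interval 4.94 to 15.2) in WT cells, 1.35-fold (0.948 to 1.94) in EGFP cells, and 0.635-fold (0.473 to 0.853) in L122A cells. In FPKM Aldh1a2 did not exceed 3.33 in any library.

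Relative to LIF, transcripts of the binding proteins ran in opposite directions with RA, further in the Nanog libraries than in the EGFP library. Relative to no LIF they did so in the Nanog libraries alone. There the EGFP ratios were 1.18 for Crabp1 (95% interval 1.06 to 1.30) and 1.12 for Crabp2 (0.972 to 1.29). Crabp1 was the most abundant member in FPKM in all 6 libraries without RA (17.6 to 45.2 FPKM). In CPM it was at 34.8, 42.6 and 38.0 with LIF and 24.9, 28.5 and 17.4 without LIF in EGFP, WT and L122A cells. The RA library of EGFP cells had 29.3 CPM, but that of WT cells 2.26 and that of L122A cells 4.72. The EGFP library with RA thus lay within the range of the cultures without RA, and the Nanog libraries lay below it. The log2 difference between RA and LIF over the 3 transfectants was -2.22 (SE 0.76, adjusted p = 0.0416). That call did not hold under total-count scaling (adjusted p = 0.0532), with no filter on low counts (0.184) or with only the RA and LIF libraries fitted (0.0612), and was lost when WT LIF (-1.97, adjusted p = 0.121), WT RA (-1.43, 0.106), L122A LIF (-1.90, 0.113), L122A no-LIF (-2.23, 0.0669) or L122A RA (-1.83, 0.169) was left out. Against no LIF, the difference of -1.45 did not pass in edgeR (adjusted p = 0.146). Crabp1 was called lower there by DESeq2 (-1.48, adjusted p = 0.0275) and by edgeR without EGFP RA (-2.76, adjusted p = 0.00155).

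Crabp2 showed the reverse. It stood at 5.09, 4.63 and 5.24 CPM with LIF, nearly equal in the 3 transfectants, and at 13.4, 3.72 and 2.23 CPM without LIF. With RA the values were 15.0 CPM in EGFP cells, 109 in WT and 91.4 in L122A cells. The EGFP library with RA was only just above the EGFP library without LIF (1.12-fold, 95% interval 0.972 to 1.29), whereas the same ratio was 29.2 (23.7 to 36.3) in WT and 40.99 (30.5 to 56.5) in L122A cells. Crabp2 rose by 3.89 on the log2 scale over LIF (SE 0.91, adjusted p = 0.00956) and by 3.59 over no LIF (SE 0.98, adjusted p = 0.0194). Without 1 library the first call was lost for WT RA (3.23, adjusted p = 0.0598), L122A RA (3.28, 0.0623) and WT LIF (3.78, 0.0548), and with no filter (adjusted p = 0.0839). The second was lost without WT RA (2.91, adjusted p = 0.0931), L122A RA (3.06, 0.0739), WT no-LIF (2.96, 0.0926) or L122A no-LIF (2.81, 0.0899), with no filter (adjusted p = 0.132) and with only these cultures fitted (0.109).

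**Figure D2:**
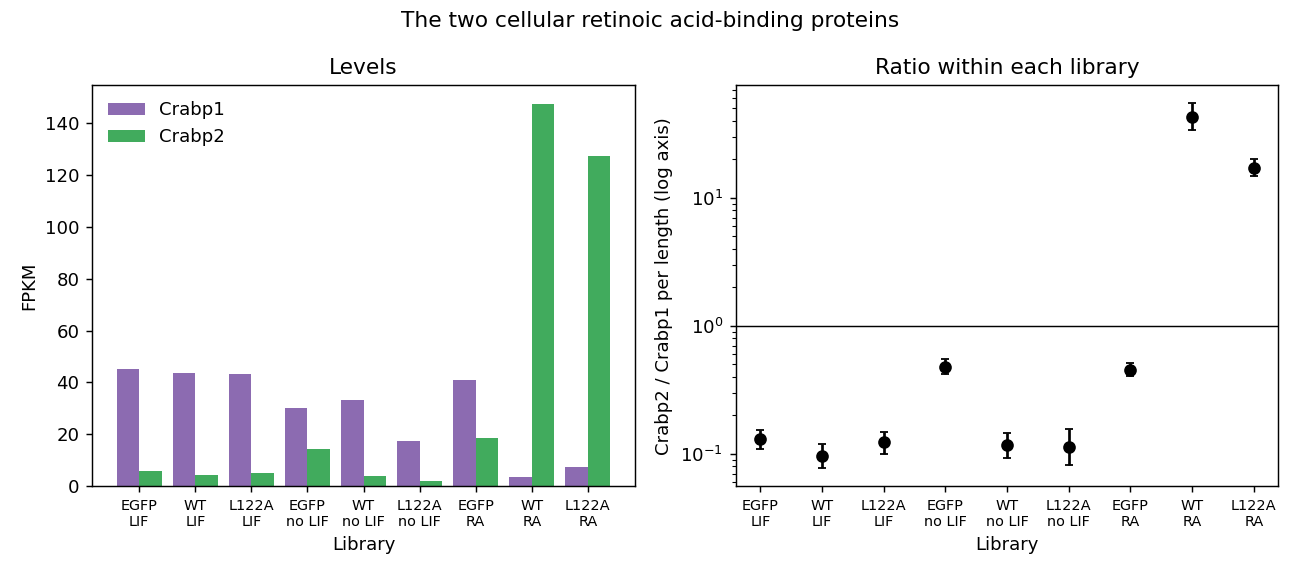
Left, deposited FPKM of Crabp1 and Crabp2 in each library (bars from 0); right, the Crabp2 to Crabp1 ratio per unit length with exact 95% intervals from the counts (log axis). The ratio lies at or below 0.480 in 7 libraries and at 42.9 and 17.3 in the WT and L122A libraries with RA.

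The ratio of Crabp2 to Crabp1 put this exchange in 1 number. Per unit length it was 0.0968 to 0.130 with LIF, 0.114 and 0.116 in L122A and WT cells without LIF, and 0.480 (95% interval 0.421 to 0.548) and 0.456 (0.408 to 0.509) in EGFP cells without LIF and with RA. In the WT library with RA it was 42.9 (34.0 to 54.9) and in L122A 17.3 (14.8 to 20.3). Crabp1 was the more abundant transcript in 7 libraries and Crabp2 in those last 2.

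The degrading enzymes were at or below 6.99 CPM without RA and included the largest increases of the group. Cyp26a1 stood at 1.94, 0.444 and 0.0904 CPM with LIF (58, 9 and 2 counts) and at 6.99, 1.19 and 0.254 CPM without LIF, in EGFP, WT and L122A cells. With RA it reached 104, 499 and 482 CPM. Without RA the EGFP cells thus held the most Cyp26a1 transcript, and with RA the least. The log2 difference between RA and LIF was 9.59 (SE 1.41, adjusted p = 0.00150), and 8.001 against no LIF (SE 1.33, adjusted p = 0.00278). The ratio of RA to LIF was 53.4 (95% interval 41.2 to 70.4) in EGFP and 1126 (593 to 2462) in WT cells; in L122A cells, where the LIF library had 2 counts, it was 5334 (1476 to 44051).

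Cyp26b1 was at or below 0.558 CPM in all libraries without RA, with 0 counts in the L122A library with LIF, a count that allows up to 0.136 CPM. With RA the EGFP library had 135 CPM, the WT library 91.8 and the L122A library 42.3, so that EGFP cells were highest here and lowest for Cyp26a1. The log2 difference was 9.42 over LIF (SE 0.88, adjusted p = 3.82e-04, edgeR) and 8.41 over no LIF (SE 0.83, adjusted p = 5.75e-04), but the gene passed the filter only through its RA libraries; with no filter these were 9.46 (adjusted p = 0.00144) and 8.45 (adjusted p = 0.002003). In L122A cells the bound was 312-fold higher with RA than with LIF, taking 3 counts as the floor of the LIF library. The exact 95% interval of that ratio started at 253.

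Cyp26c1, which lies 4389 bases upstream of Cyp26a1 on chromosome 19 (mm9, 37760169 to 37767953 against 37772343 to 37776018), remained low. It was at 0 to 0.267 CPM without RA and at 0.779, 3.60 and 3.202 CPM with RA in EGFP, WT and L122A cells. Its RA libraries were also above all others, with the Nanog libraries highest, as for its neighbour. It had too few reads for the main test; with no filter on low counts the log2 difference was 5.68 over LIF (SE 1.17, adjusted p = 0.00311) and 4.57 over no LIF (SE 1.11, adjusted p = 0.00928).

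**Figure D3:**
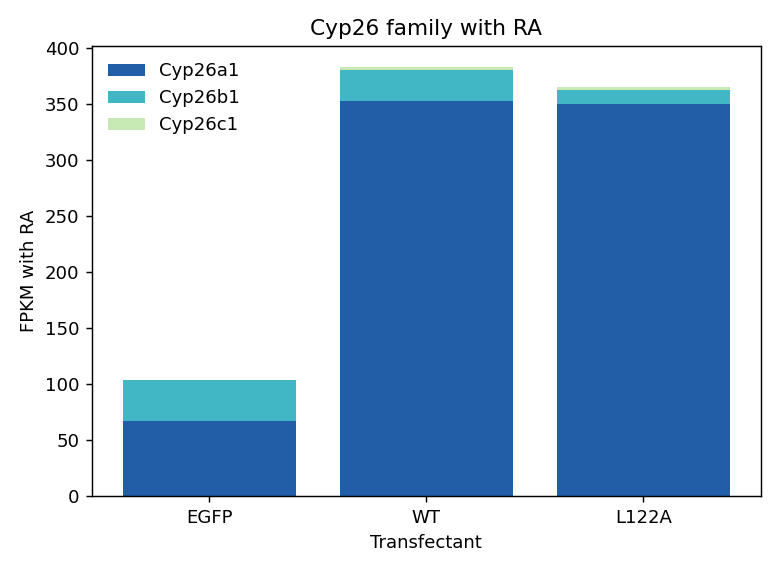
Deposited FPKM of Cyp26a1, Cyp26b1 and Cyp26c1, stacked, in the RA library of each transfectant (bars from 0, 1 library each). Their sum is 104 FPKM in EGFP, 383 in WT and 365 in L122A cells, of which Cyp26a1 makes up 64.5%, 92.2% and 95.8%.

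Per unit length, the family's make-up with RA differed between transfectants. Cyp26a1 was at 67.1, 353 and 350 FPKM in EGFP, WT and L122A cells, Cyp26b1 at 36.4, 26.95 and 12.7 FPKM, and Cyp26c1 at 0.550, 2.78 and 2.54 FPKM. The ratio of Cyp26a1 to Cyp26b1 was 1.85 in EGFP, 13.1 in WT and 27.5 in L122A cells. Cyp26a1 was the most abundant of the 9 genes in every RA library. Next came Dhrs3 (56.5 FPKM) and Crabp1 (40.8 FPKM) in EGFP cells, and Crabp2 (147 and 127 FPKM) and Dhrs3 (69.2 and 58.9 FPKM) in WT and L122A cells.

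**Figure D4:**
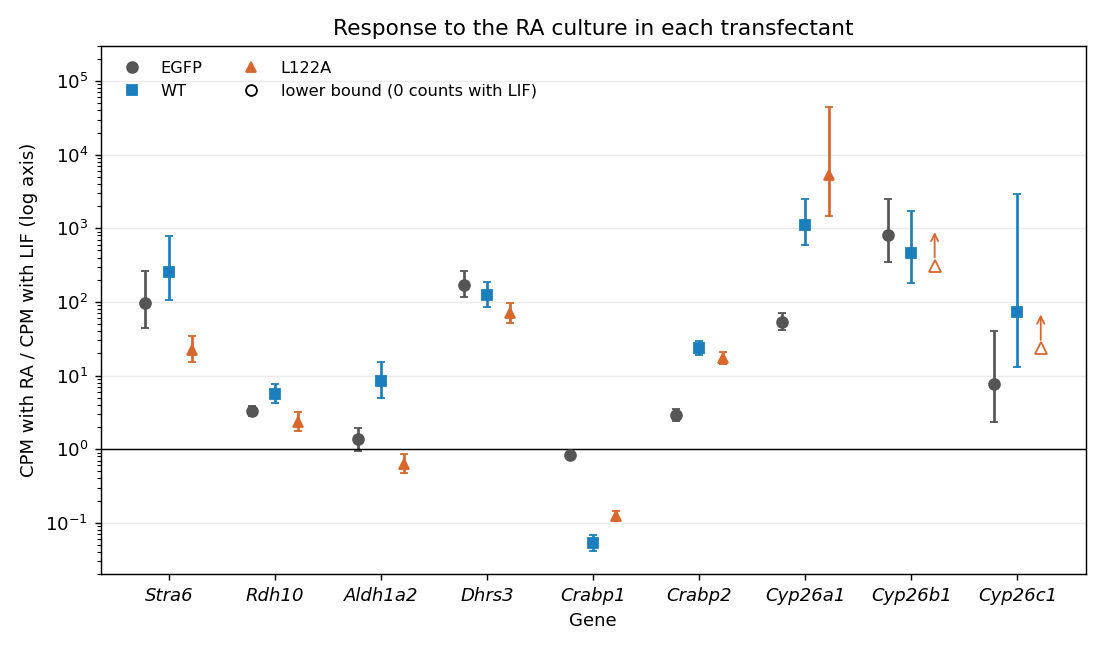
CPM with RA divided by CPM with LIF for each gene and transfectant (log axis), with exact 95% Poisson intervals for counting error; open symbols with arrows are lower bounds where the LIF library had 0 counts. Dhrs3 spans 70.8-fold to 170-fold, whereas Cyp26a1 ranges from 53.4-fold in EGFP to 5334-fold in L122A cells and Crabp1 lies below 1 in all 3.

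Withdrawal of LIF without RA changed no member in the additive model. By edgeR 0 of 8 genes were called, beside 0.0714% of all genes; 1 (Dhrs3, log2 difference 1.44, SE 0.50) had an unadjusted p below 0.05, and DESeq2 and limma called 0. The EGFP cells, taken alone, did differ between these cultures. Relative to LIF, the EGFP library without LIF was higher by 8.25-fold for Dhrs3 (95% interval 5.45 to 13.0), 3.60-fold for Cyp26a1 (2.66 to 4.92), 2.63-fold for Crabp2 (2.17 to 3.21) and 2.55-fold for Rdh10 (2.18 to 3.00). These 4 genes met the level used for single libraries, a 2-fold difference with 5 CPM or more in the higher one, as did 9.89% of all genes tested in either direction; there is no replicate and hence no test. In WT cells the corresponding ratios were 1.93, 2.67, 0.803 and 1.38, and in L122A cells 1.10, 2.80, 0.425 and 1.30, with Cyp26a1 resting on 9 and 29 counts in WT and on 2 and 5 in L122A cells. The difference between the Nanog transfectants and EGFP in the response to LIF withdrawal was tested with WT and L122A as libraries of 1 class: 0 of 8 members and 0% of all genes were called by edgeR, 2 members had an unadjusted p below 0.05 (Dhrs3, log2 difference -2.52, adjusted p = 0.333, and Crabp2, -2.12, adjusted p = 0.403), DESeq2 called 2 and limma 0.

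Over the 3 cultures together, Rdh10 was lower in L122A than in EGFP cells by a log2 difference of -1.94 (SE 0.37, adjusted p = 0.0355, edgeR), the only member among 8 called in that comparison, in which 1.99% of all genes were lower. Rdh10 was lower in L122A cells in 3 of 3 cultures. The call was lost without EGFP no-LIF (-1.56, adjusted p = 0.123), L122A no-LIF (-1.88, 0.185), L122A RA (-1.77, 0.112), L122A LIF (-2.19, 0.0508) or WT LIF (-1.94, 0.0696), with limma on FPKM (adjusted p = 0.0521) and with only these transfectants fitted (0.0875). In WT against EGFP cells Rdh10 had a log2 difference of -1.52 (SE 0.37, adjusted p = 0.139); 0 of 8 members were called by edgeR against 0.322% of all genes, 1 had an unadjusted p below 0.05, DESeq2 called 1 and limma 0. Between L122A and WT cells 0 members and 0% of all genes were called by edgeR, no member had an unadjusted p below 0.05, and DESeq2 and limma called 0 members.

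**Figure D5:**
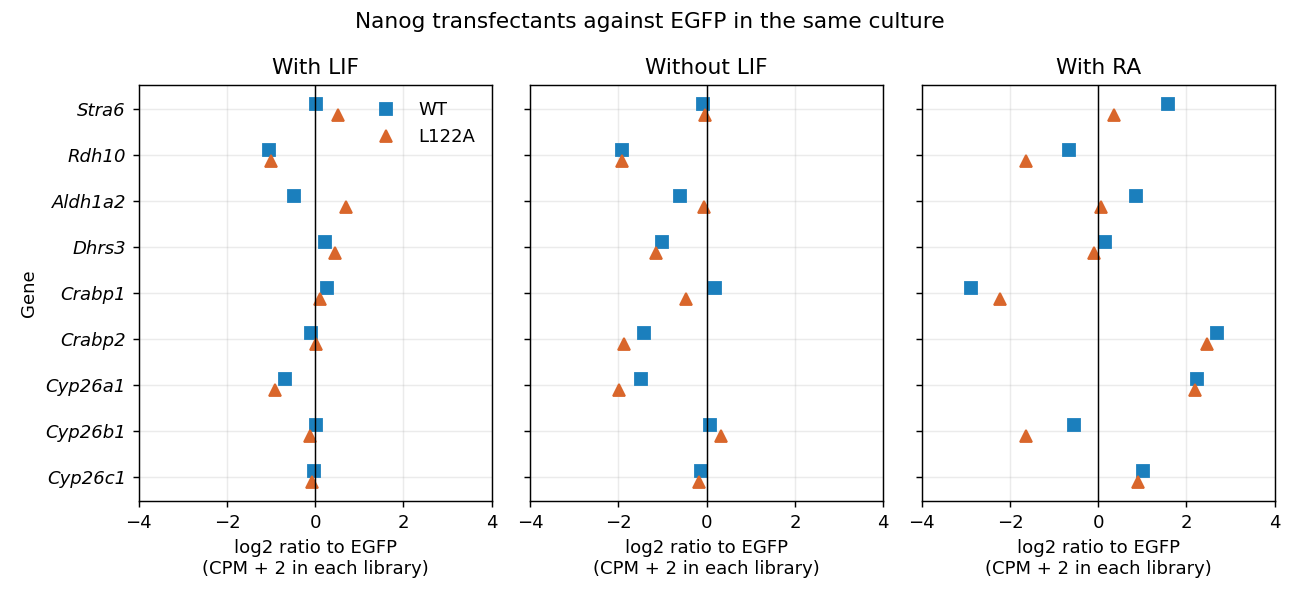
Log2 ratio of the WT and L122A libraries to the EGFP library of the same culture, for each gene (CPM plus 2 in each library, 1 library per point). With RA, Crabp2 and Cyp26a1 lie to the right and Crabp1 to the left in both Nanog transfectants; without LIF, Cyp26a1, Crabp2, Rdh10 and Dhrs3 lie to the left.

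Within cultures the members separated the Nanog transfectants from EGFP in different ways. With LIF, Rdh10 was the sole gene at least 2-fold apart at 5 CPM, 2.88-fold lower in WT (95% interval 2.13 to 3.95) and 2.69-fold lower in L122A cells (2.03 to 3.62), beside 7.41% and 6.93% of all genes apart in those pairs. Without LIF, 4 members were lower in both Nanog libraries, beside 11.7% (WT) and 14.8% (L122A) of all genes apart. Cyp26a1 was 5.90-fold lower in WT (3.97 to 9.06) and 27.6-fold in L122A cells (11.6 to 86.0), and Rdh10 was 5.33-fold and 5.30-fold lower. Crabp2 was 3.61-fold and 6.01-fold lower, and Dhrs3 2.79-fold and 3.37-fold lower. As measured above, these Nanog-labelled libraries held less Nanog transcript than EGFP with and without LIF. These are the same genes that were higher in the EGFP library without LIF than in that with LIF, and the comparisons share that EGFP library.

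With RA the pattern differed. In WT cells 4 members were higher and 1 lower than in EGFP cells (8.21% of all genes apart): Crabp2 7.24-fold (6.58 to 7.98), Cyp26a1 4.82-fold (4.64 to 5.00), Stra6 3.19-fold (2.91 to 3.49) and Aldh1a2 2.48-fold (1.90 to 3.25) higher, and Crabp1 13.0-fold lower (10.2 to 16.7). In L122A cells 2 were higher and 3 lower (14.3% of all genes apart): Crabp2 6.10-fold (5.54 to 6.73) and Cyp26a1 4.65-fold (4.48 to 4.83) higher, Crabp1 6.21-fold (5.26 to 7.36), Rdh10 3.73-fold (3.23 to 4.33) and Cyp26b1 3.201-fold (3.02 to 3.40) lower. Dhrs3 was within 1.12-fold of EGFP in WT cells and within 1.08-fold in L122A cells.

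Between the Nanog forms, members were apart in the RA culture only at this level. With LIF and without LIF, 0 members were at least 2-fold apart with 5 CPM in the higher library, beside 2.57% and 5.78% of all genes; at a minimum of 1 CPM, 2 were apart in each. With RA, 4 members were lower in L122A than in WT cells, while 2.79% of all genes were lower and 5.27% apart in either direction: Stra6 2.44-fold (2.26 to 2.65), Aldh1a2 2.29-fold (1.78 to 2.95), Rdh10 2.24-fold (1.91 to 2.62) and Cyp26b1 2.17-fold (2.04 to 2.31). Cyp26a1 differed by 1.04-fold (1.01 to 1.06) and Crabp2 by 1.19-fold (1.13 to 1.25). Whether these differences would recur in other cultures of the same cells was not tested.

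Whether the response to RA differed between Nanog and EGFP cells was tested directly for the Nanog class. Relative to no LIF, Crabp2 responded more in Nanog cells by 4.90 on the log2 scale (SE 0.51, adjusted p = 0.0285, edgeR); it was the only member of 8 called and 1 of 5 genes called in that direction (0.0357% of all tested). Cyp26a1 had a larger estimate, 5.46, that did not pass (SE 0.89, adjusted p = 0.148), and Crabp1 had -2.95 (SE 0.66, adjusted p = 0.229). The Crabp2 call was lost under total-count scaling (5.18, adjusted p = 0.0554), where the median of all genes moved by 0.30, and without WT LIF (4.90, adjusted p = 0.0987), L122A LIF (4.90, 0.0965) or L122A no-LIF (4.59, 0.0679). Relative to LIF, 0 of 8 members were called by edgeR, beside 0.00714% of all genes. There 3 members had an unadjusted p below 0.05: Crabp2 (log2 difference 2.78, adjusted p = 0.162), Crabp1 (-3.28, adjusted p = 0.205) and Cyp26a1 (5.12, adjusted p = 0.227); DESeq2 called 2 members and limma 1. Each culture of the EGFP class is 1 library in these tests, so the spread comes wholly from the difference between the WT and L122A libraries, which carry different constructs, and the p-values hold no measure of variation between EGFP cultures.

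Markers of other cell types moved with the transfectant in the RA culture, in which Crabp1, Crabp2, Cyp26a1 and Cyp26b1 differed. The summed level of 11 extraembryonic endoderm markers was 3550 CPM in EGFP, 2387 in WT and 890 CPM in L122A cells with RA, against 153 to 1075 CPM in the other libraries, with 1, 0 and 0 of the markers at 0 counts. Sparc, a secreted matrix protein made by many cell types, held most of this sum; without it the sums with RA were 408, 791 and 234 CPM, highest in WT cells, and 12.8 to 71.2 CPM elsewhere. That of 10 fibroblast markers was 427, 67.4 and 36.6 CPM with RA (1 marker at 0 in each) and 10.2 to 35.9 CPM elsewhere. Sums of 7 neural markers were 218, 71.1 and 52.8 CPM with RA (2, 1 and 0 at 0) and 27.9 to 85.6 CPM elsewhere, but Nes made up 186, 54.6 and 38.3 CPM of these; the other 6 summed to 31.4, 16.5 and 14.5 CPM with RA and 10.05 to 40.8 CPM elsewhere. The sum of 7 mesoderm and primitive streak markers was 166 CPM in the EGFP library without LIF, where 4 members were higher than with LIF, and 5.87 to 24.4 CPM in the other 8. Relative to LIF with RA, 9 of 9 tested endoderm markers rose (Foxa2 by 6.39 and Gata6 by 4.97 on the log2 scale), as did 8 of 9 fibroblast markers (Col3a1 by 7.92, Dcn by 5.46), 2 of 4 neural markers (Nes by 3.52) and 1 of 4 mesoderm markers (Wnt3 by 2.21), where 24.5% of all genes were called higher; the neural and mesoderm lists are too short to set against that share. Gata6 and Sox17 stayed below 1 CPM in every library without RA, so that the filter admitted them through their RA libraries alone. Col3a1 and Dcn reached it without RA only in the EGFP library without LIF. That limits the endoderm and fibroblast counts. Of 12 pluripotency markers 9 fell (Tdgf1 by 7.74, Fgf4 by 5.76) and 1 rose (Tbx3 by 2.37). The RA culture also lacked LIF. Relative to no LIF, 8 pluripotency markers fell and 2 rose, and 8 of 9 endoderm and 8 of 9 fibroblast markers rose. The part of all these markers in the levels of the retinoid genes was not tested.

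Other genes of retinoid handling changed in both directions. Of a list of 33, 31 were in the table and 19 were tested. Relative to LIF with RA, 6 of the 19 rose and 3 fell, near the shares of all genes (24.5% higher and 23.8% lower). The list's median log2 difference was 0.05. Relative to no LIF, 4 rose and 2 fell. The largest increases over LIF were of Adh1 and Aldh1a1. Adh1, an alcohol dehydrogenase that can oxidise retinol, rose by 9.68 (SE 1.02, adjusted p = 8.69e-04, edgeR). Aldh1a1, a retinal dehydrogenase, rose by 4.90 (SE 0.64, adjusted p = 8.52e-04, edgeR). Adh1 ran from 0 FPKM in EGFP cells with LIF to 8.17 in WT cells with RA. Aldh1a1 ran from 0 FPKM in L122A cells with LIF to 4.05 in EGFP cells with RA. Both differences thus rest on libraries at or near 0. The decreases with the largest size were of Cyp2s1, a cytochrome P450 (-1.62, SE 0.46, adjusted p = 0.01998), and Dhrs4, a retinal reductase (-1.13, SE 0.25, adjusted p = 0.00635). Aldh1a1 was also lower in L122A than in EGFP cells by a log2 difference of -4.82 (SE 0.66, adjusted p = 0.0134), the only list member called between transfectants. Those with the highest mean level included Adh5 (117 FPKM on average), Rdh5 (14.4), Dhrs7 (11.1), Dhrs4 (10.03) and Fabp5 (9.82), the last encoding a protein that also carries RA. Of these, Dhrs7 rose with RA over LIF (1.44 on the log2 scale), Adh5 and Dhrs4 fell, and Rdh5 (-0.51) and Fabp5 (-0.95) did not pass.

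The receptors and their targets were read beside the members. Of 11 genes for RA receptors and cofactors, 4 rose and none fell with RA over LIF, where 24.5% of all genes were higher and 23.8% lower; they were led by Rarb (7.57, SE 0.31, adjusted p = 3.73e-05), whose promoter repeat is printed above, and Nrip1, a receptor-bound cofactor (4.36, SE 0.32, adjusted p = 2.01e-04). Of 20 commonly used RA target genes, 18 were tested, 16 rose and 1 fell (Gbx2, -3.42, SE 0.71), with a median of 5.62, beside the same shares of all genes. Rarb led these as well, followed by Hoxb5 (7.53, SE 1.11). Rarb, Hoxa4 and Hoxb1 stayed below 1 CPM in every library without RA, so that the filter admitted them through their RA libraries alone. That limits the counts and the median set beside all genes. The RA culture also lacked LIF. Relative to no LIF, 16 of the 18 tested targets rose and 0 fell, and 6 of the 11 receptor and cofactor genes rose. In that comparison 22.6% of all genes were higher. The summed level of the target list with RA was 905 CPM in EGFP, 1311 in WT and 1115 CPM in L122A cells.

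Finally, the genes whose levels followed each member most closely across the 9 libraries were listed, by the Pearson correlation of log2 CPM. These correlations describe 9 points that share their libraries and are split by the RA culture. Cyp26a1 was most alike to Hoxb2 (0.99), Hoxa2 (0.99) and Tcf7l2 (0.99), and Stra6 to Hoxb3, Hoxa6 and Hoxb7 (each 0.99). Cyp26b1 was closest to Pparg (0.997), Sox9 (0.996) and Dst (0.996), and Dhrs3 to Notch2 (0.997) and Edil3 (0.995) and Ak3 (0.99). Crabp2 was closest to Chd6, Hdac5 and Cdon (each 0.98), Rdh10 to Efemp1, Tagln and Edn1 (each 0.99), and Cyp26c1 to Mfsd7c and Lhx1 (each 0.99). Crabp1 had lower values, with Hsd17b12 (0.94), BC027231 (0.93) and Gfer (0.92), as had Aldh1a2, with Xpa (0.92), Atpgd1 (0.91) and Pigu (0.89). Among the members, the closest pairs were Cyp26c1 with Crabp2 (0.98) and Cyp26a1 with Dhrs3 (0.97), and Crabp1 had a negative value with each of the other 8, down to -0.93 with Cyp26c1.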

How the data were processed

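Total RNA of RF8 cells was sequenced in 9 libraries. The submitters' processing notes name TopHat2 2.0.11 and mm9; for the counting program and its use of strand, nothing is stated (not given in the sources used here). Per gene, the authors deposited a raw count, not normalized, and FPKM; in each library 100% of genes above 5 FPKM equalled the count divided by length and by the library's total, within 1%. Columns were joined to samples by title; the culture name in the columns taken as LIF is in no sample label and was assigned by elimination. Nothing says that libraries came from separate cultures beyond their condition. Coordinates are those of the file (mm9) or of RefSeq promoter windows (GRCm38.p6).

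Counts were tested with edgeR 4.0.16 (R 4.3.3; TMM, robust quasi-likelihood, biological coefficient of variation 0.325 on 4 residual degrees of freedom, adjusted p below 0.05 over 13996 genes). Nanog against EGFP responses used class means (3 residual degrees of freedom). SE is the absolute log2 change over the square root of F. Alternatives used DESeq2 1.42.0 and limma 3.58.1 (log2 of FPKM plus 1), RLE and total-count scaling, no filter, only the levels compared, and each library left out. The test of RA over LIF was also run on counts simulated from the additive model, with known changes and the same spread for all genes. Such counts hold no difference in response between transfectants, so they cannot check calls where the transfectants differ. Python 3.11.15, scipy 1.17.1 and matplotlib 3.10.9 gave promoter searches, intervals and plots. Of 111 listed pathway and marker symbols, 107 were in the file. Named are all 9 members, the 2 called genes with the largest change each way per list, the 6 other retinoid genes of highest mean FPKM, and the 3 genes most correlated with each member, leaving out predicted genes; a few that qualify are not reported here. The members, lists and tests were chosen with earlier results of these data known. Bounds against a library at 0 use 3 counts as floor, and log2 ratios of single libraries a prior of 2 CPM.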

Additional observations from a re-analysis of the deposited data

Results flagged for a closer look

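The estimated response of Crabp2 to RA over no LIF was larger in Nanog than in EGFP cells by 4.90 on the log2 scale, which passed in the test of the difference itself (adjusted p = 0.0285, edgeR). The EGFP side is 1 library per culture, and the call was lost under total-count scaling (adjusted p = 0.0554) and without WT LIF (0.0987), L122A LIF (0.0965) or L122A no-LIF (0.0679). The following differences between transfectants were not tested, since each rests on 1 library per combination; they were picked because the responses ran in opposite directions with counting intervals on opposite sides of 1. Crabp2 without LIF over LIF was higher in EGFP and lower in L122A cells, a gap of 2.63 on the log2 scale. Aldh1a2 with RA over LIF was higher in WT and lower in L122A cells, a gap of 3.72. Crabp1 with RA over no LIF was 1.18-fold higher in EGFP cells (95% interval 1.06 to 1.30) and lower in WT and L122A cells, gaps of 3.89 and 2.12.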

How the results depend on the processing

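Across 15 alternatives no called gene changed direction, and 851 of 977 gene values kept their direction and side of the threshold, while 34 lost a call, 25 gained one, and 67 uncalled ones changed sign. The cause was not tested. Members called with RA over LIF were 7, and 4 to 7 with 1 library left out. With RA over no LIF they were 6, but 7 with DESeq2, 4 with only the levels compared, and 3 to 6 with 1 library left out. Calls for WT against EGFP were 0, but 1 with DESeq2 and 0 to 1 with 1 library left out; for L122A against EGFP 1, but 0 with limma and 0 with only the levels compared, and 0 to 2 with 1 left out. For the difference in RA response over LIF 0 became 3 with no filter, 2 with DESeq2, 1 with limma, and 0 to 1 with 1 left out; for that in the response to LIF withdrawal, 0 became 2 with no filter and 2 with DESeq2; for that in RA response over no LIF, 1 became 0 under total-count scaling, 5 with no filter, 2 with DESeq2, 2 with limma, and 0 to 2 with 1 left out. Over all genes, DESeq2 called 278 against 10 (no LIF over LIF), 614 against 45 (WT over EGFP), 1438 against 403 (L122A over EGFP), 51 against 0 (L122A over WT), and 264 against 1, 120 against 0 and 251 against 6 for the 3 differences in response; with no filter these last were 684, 403 and 634. Total-count scaling moved the higher share of calls with RA over no LIF from 50.8% to 72.6%. At a minimum of 1 CPM, members 2-fold apart with LIF went from 1 to 3 (WT over EGFP), 1 to 5 (L122A over EGFP) and 0 to 2 (L122A over WT), and without LIF from 0 to 2 (L122A over WT). The additive model already compares cultures within transfectants. No further pairing was possible because each combination is 1 library and replicate numbers pair nothing. Depth limits Cyp26a1, Cyp26b1, Cyp26c1 and Stra6 without RA, where counts were often under 10.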
